A study of Homo sapiens with 4 samples.

Results

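The AP-1 transcription factors were measured in H1975 cells as the transcripts of 8 genes: FOS, FOSB, FOSL1, FOSL2, JUN, JUNB, JUND and ATF3. They were chosen by gene symbol, and all 8 were found among the 15562 genes of the deposited mRNA tables. H1975 is an established human lung adenocarcinoma line, labelled wild type for genotype, and is known to carry mutations of the growth factor receptor gene EGFR. One culture was kept for 24 h in a hypoxic incubator, in a gas of 94% N2, 5% CO2 and 1% O2, and was set against a culture in normoxia under 5% CO2. Each condition was measured by 1 RNA-seq library, and the 2 miRNA-seq libraries of the series were not used. With 1 library a condition there is no spread between replicates and no test. Each ratio carries a 95% counting interval, which covers counting error only, and the condition cannot be told apart from the culture, the RNA extraction or the library.

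AP-1 is a dimer of basic leucine zipper (bZIP) proteins that binds the DNA letters TGACTCA and, in some combinations, TGACGTCA. JUN proteins pair with each other or with FOS proteins, whereas FOS proteins need a JUN partner, and ATF3 is a stress-induced relative that can pair with JUN proteins. Many of these genes are immediate early genes, switched on within minutes by growth factors or stress through MAP kinases, and in carcinoma cells AP-1 is known for driving genes of invasion, proliferation and cytokine release.

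RefSeq promoter windows (GRCh38.p14, 250 bases before to 50 bases after the annotated start) were found for 7 of the 8 genes, and FOSL1 had no entry. The 200 bases before the start are shown for FOSB and JUNB, which had the highest hypoxia to normoxia ratios of the 8, and for JUN, which had one of the lowest. They are written on the coding strand, with capitals for the short words named in the paragraph after them, found on either strand.
FOSB, chr19:45467796-45467995, plus strand: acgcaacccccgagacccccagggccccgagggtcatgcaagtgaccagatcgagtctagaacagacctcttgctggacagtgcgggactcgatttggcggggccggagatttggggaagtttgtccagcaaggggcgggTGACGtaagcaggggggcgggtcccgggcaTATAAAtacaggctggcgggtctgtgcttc
JUNB, chr19:12791286-12791485, plus strand: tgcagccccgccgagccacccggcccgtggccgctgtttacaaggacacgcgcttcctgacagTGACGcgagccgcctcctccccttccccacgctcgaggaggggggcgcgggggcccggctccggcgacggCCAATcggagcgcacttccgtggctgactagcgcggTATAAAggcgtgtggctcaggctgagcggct
JUN, chr1:58784048-58784247, minus strand: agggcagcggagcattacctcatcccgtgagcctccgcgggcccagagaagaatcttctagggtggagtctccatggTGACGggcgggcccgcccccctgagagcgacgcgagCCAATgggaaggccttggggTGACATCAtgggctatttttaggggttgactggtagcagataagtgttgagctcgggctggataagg
Shorter windows are shown for the other genes because each holds an AP-1 or CRE-type word, in capitals.
JUND, chr19:18281805-18281832, minus strand: gccgcccccaTGACGTCAacccacaagg
ATF3, chr1:212565274-212565301, plus strand: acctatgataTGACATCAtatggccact
FOSL2, chr2:28392852-28392878, plus strand: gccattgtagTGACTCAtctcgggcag
FOS, chr14:75278754-75278778, plus strand: gttgagcccgTGACGtttacactca

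TGACATCA, a variant of the CRE that JUN and ATF2 dimers are known to bind in the JUN promoter, lay at positions -67 to -60 of JUN and -123 to -116 of the upstream start of ATF3, where the base before the start is -1. It was present in 2.61% of all 35116 promoter windows, searched on both strands. The palindrome TGACGTCA was found in JUND (1.85% of windows) and TGACTCA in FOSL2 at positions 5 to 11, just after the start (4.95%). The shorter TGACG, which is part of TGACGTCA, was in 6 of the 7 genes with a window and in 24.6% of all windows. TATAAA (11.5% of windows) was in those of FOS at -33 to -28, FOSB at -30 to -25 and JUNB at -31 to -26. In ATF3 it lay farther out, at -230 to -225 of the downstream start. CCAAT was in the windows of JUN, JUNB, JUND and ATF3 (34.6%). ACGTG, the core of the hypoxia response element, was in FOSL2 at -64 to -60, where it overlaps a TGACG, and in 21.4% of all windows. The CArG box, the site of the serum response factor SRF, was in none of the 7 genes' windows and in 1.29% of all. The windows begin 250 bases before the start, so a site farther upstream would not have been found. These matches describe letters in the windows and not bound sites.

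In these cells JUN family transcripts outnumbered FOS family transcripts per unit of gene length, and JUNB was the most abundant of the 8 genes. JUNB, an intronless JUN relative, had 211 FPKM (counts per kilobase of gene, scaled to the library total) in hypoxia and 179 in normoxia. JUND, the most constitutively expressed JUN gene in many tissues, had 131 FPKM in hypoxia and 146 in normoxia. Both were the highest of the 31 bZIP genes considered in either library, namely the 30 that the authors' annotation column places in that family and FOSB, which the column leaves unlabelled. Some other bZIP genes that the column does not place there were left out of this ranking. Among them, ATF4 had 41.2 FPKM in hypoxia and 44.6 in normoxia, and DDIT3 had 42.7 and 43.4. FOSL1, a FOS relative known for high levels in carcinoma cells with active ERK signalling, had 61.1 FPKM in hypoxia and 85.9 in normoxia.

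FOS had 51.7 FPKM in hypoxia and 50.5 in normoxia. JUN, the founding JUN gene, had 38.1 FPKM in hypoxia and 52.3 in normoxia. FOSL2, a FOS relative with a long transcript, had 25.8 and 24.1 FPKM. The lowest were ATF3, with 3.02 FPKM in hypoxia and 3.24 in normoxia, and FOSB, with 1.48 and 0.961. JUN stood below FOS in hypoxia, where their counting intervals (36.6 to 39.7 for JUN and 49.5 to 53.9 for FOS) did not overlap. In normoxia JUN and FOS could not be placed in order, with intervals of 50.5 to 54.2 and 48.2 to 52.8 FPKM. The other neighbours in the order were separated by more than counting error in both libraries.

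**Figure D1:**
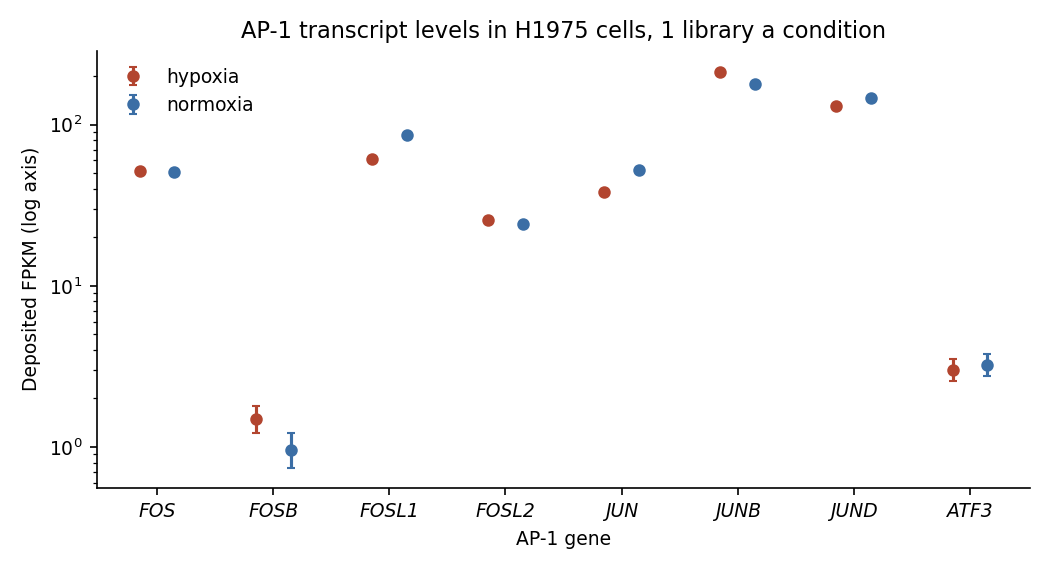
Deposited FPKM (log axis) of the 8 AP-1 genes in the hypoxia and normoxia libraries, with 95% Poisson counting intervals. JUNB and JUND lie above 100 FPKM in both libraries, and FOSB and ATF3 lie far below the other genes.

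Hypoxia and normoxia differed most, among AP-1 genes with many reads, in FOSL1 and JUN, which were lower in hypoxia, and in JUNB, which was higher. Ratios were taken on counts scaled by the trimmed mean of M values (TMM), over 12725 genes with a CPM (counts scaled to a fixed library total) of 1 or more in at least 1 library, and all 8 AP-1 genes passed this filter. At a threshold of 1.5-fold with an interval that excludes 1, FOSB was higher in hypoxia and no other AP-1 gene passed, against 1.19% of all filtered genes higher and 1.13% lower. At 1.2-fold FOSB was higher and FOSL1 and JUN were lower, so 1 and 2 of 8, against 4.75% and 4.71% of all. None of the 8 passed 2-fold, against 0.472% of all genes higher and 0.448% lower. The interval lay wholly above 0 for 3 of the 8 log2 ratios and wholly below 0 for 3, against 14.5% and 14.4% of all genes. An interval excludes 0 more readily in a gene with many reads. These shares of all genes, here and for the lists below, were not matched for count. Of the 8 ratios 4 lay above 0 and 4 below. The median log2 ratio of the 8 was -0.03, and that of all filtered genes was 0.00.

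Within the JUN family, JUNB (chromosome 19, 12791486 to 12793315, GRCh38.p14) had 7331 counts in hypoxia (exact Poisson interval 7164 to 7501) and 5780 in normoxia (5632 to 5931). The log2 ratio of JUNB was 0.25 (0.20 to 0.30), which is 1.19-fold. Of the 937 other genes whose mean count lay within 2-fold of its own, 19 had a higher ratio, and the central 95% of them ran from -0.19 to 0.23. JUNB overlaps HOOK2, which lies on the opposite strand, over 865 bases. HOOK2 itself had 1212 counts in hypoxia and 993 in normoxia (log2 ratio 0.19, 0.07 to 0.31). The libraries were made with a stranded kit, but the strand setting of the counting was not stated in the sources used here. The effect of the overlap on the JUNB count, in either direction, was not tested.

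JUN (chromosome 1, 58780791 to 58784047) had 2350 counts in hypoxia (2256 to 2447) and 3008 in normoxia (2901 to 3117). The log2 ratio of JUN was -0.45 (-0.53 to -0.37), which is 1.37-fold lower in hypoxia. Only 6 of 2773 genes of like count had a lower ratio, and their central 95% ran from -0.22 to 0.24. JUND (chromosome 19, 18279694 to 18281622) had 4789 counts in hypoxia and 4985 in normoxia. The log2 ratio of JUND was -0.15 (-0.21 to -0.10) and lay inside the central 95% of its 1392 like-count genes, from -0.20 to 0.23. The 3 JUN genes therefore stood at different ratios, with JUNB higher, JUND slightly lower and JUN clearly lower in hypoxia than in normoxia.

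Within the FOS family, FOSL1 (chromosome 11, 65892049 to 65900545) had 1969 counts in hypoxia (1883 to 2058) and 2579 in normoxia (2480 to 2681). Its log2 ratio of -0.48 (-0.57 to -0.40), 1.40-fold lower in hypoxia, was the lowest of the 8 AP-1 genes. Only 3 of 3225 genes of like count were lower, and their central 95% ran from -0.23 to 0.24. FOS (chromosome 14, 75278828 to 75282230), the classical immediate early member, had 2059 counts in hypoxia and 1874 in normoxia. The log2 ratio of FOS was 0.04 (-0.05 to 0.13), so a difference between the conditions was not detectable at this depth. FOSL2 (chromosome 2, 28392858 to 28417317) had 4290 counts in hypoxia and 3744 in normoxia and a log2 ratio of 0.10 (0.04 to 0.16), inside the central 95% of 1790 like-count genes (-0.20 to 0.23). FOSL2 overlaps the antisense RNA gene FOSL2-AS1 over 1815 bases of its genomic span.

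FOSB (chromosome 19, 45467996 to 45475179), whose short splice form is known to accumulate in rodent brain after repeated stimulation, had 106 counts in hypoxia (86.8 to 128) and 64 in normoxia (49.3 to 81.7). The FOSB log2 ratio was 0.63 (0.17 to 1.10), a ratio of 1.55 that lay close to the 1.5-fold threshold. Among 1752 genes of like count 48 had a higher ratio, and the central 95% of those genes ran from -0.65 to 0.65, so that FOSB lay inside it. Gene counts do not separate its splice forms. ATF3 (chromosome 1, 212565407 to 212620777), induced by many stresses, had 164 counts in each library and a log2 ratio of -0.10 (-0.42 to 0.23), so no difference was detectable at this depth.

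**Figure D2:**
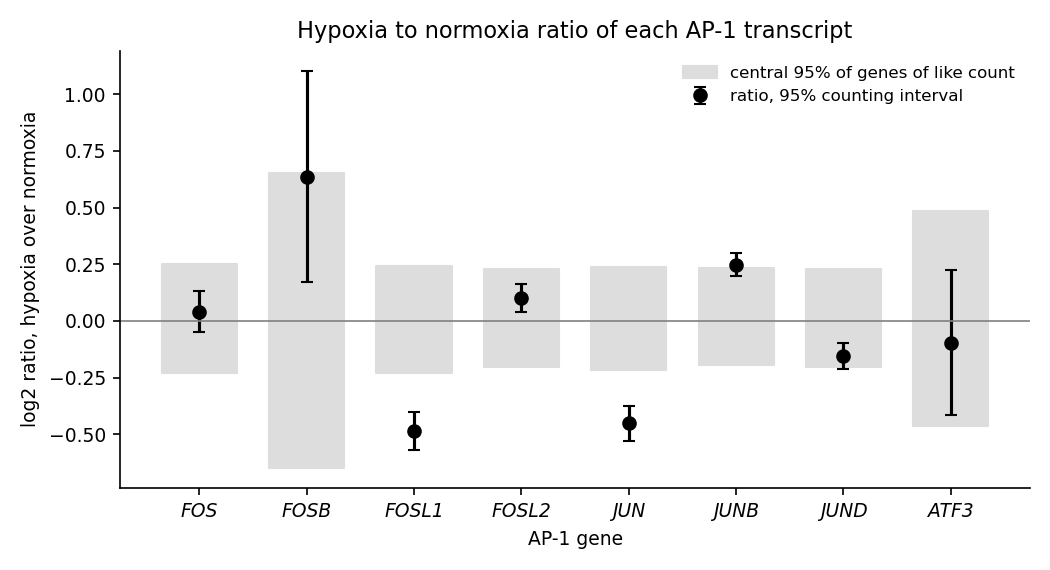
Log2 ratio of hypoxia over normoxia for each AP-1 gene (black, with 95% counting interval) over the central 95% of genes whose mean count lay within 2-fold (grey). FOSL1 and JUN lie below the grey range, JUNB lies just above its upper edge, and FOSB has a high ratio inside a wide range.

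The genes of like count that lay below FOSL1 were CCN2, DUSP5 and AMOTL2, and these 3 also lay below JUN, together with CCN1, FOSL1 and DKK1. They were named after their values were seen. CCN2, a matricellular protein known as a target of YAP and TEAD, had 1202 counts in hypoxia and 1768 in normoxia (log2 ratio -0.65, -0.76 to -0.55). AMOTL2, another known YAP target, was at -0.53 (-0.62 to -0.43). DUSP5, a phosphatase induced by ERK that acts on ERK, had 1151 counts in hypoxia and 1566 in normoxia and a log2 ratio of -0.54 (-0.65 to -0.43). DKK1, a secreted Wnt inhibitor, was at -0.46 (-0.55 to -0.38). With 2 libraries, a like ratio is no measure of a shared pattern across samples.

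**Figure D3:**
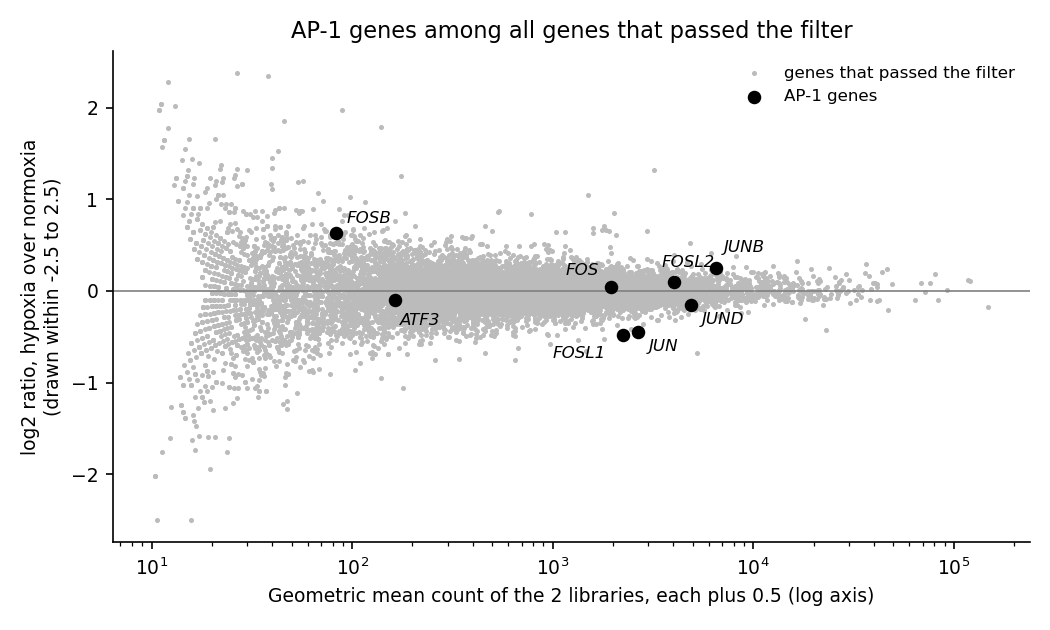
Log2 ratio of hypoxia over normoxia against the geometric mean count (log axis) for the 12725 filtered genes (grey) and the AP-1 genes (black). The spread of all genes narrows with count, and FOSL1 and JUN lie at the lower edge of the cloud at their counts while FOSB lies at the upper edge of a wider one.

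The make-up of the AP-1 transcript pool differed between the libraries, while its summed level was 524 FPKM in hypoxia and 543 in normoxia. JUN family genes made up 72.7% of the summed FPKM in hypoxia and 69.6% in normoxia, and FOS family genes 26.7% and 29.8%. As shares of counts, which are not per length, the JUN genes held 62.8% (exact binomial interval 62.1 to 63.4) in hypoxia and 62.0% (61.4 to 62.7) in normoxia, and the FOS genes 36.5% (35.9 to 37.2) and 37.2% (36.6 to 37.9). The intervals of these count shares overlapped between the libraries for both families. JUNB alone made up 40.4% in hypoxia and 33.0% in normoxia. FOSL1 made up 11.7% in hypoxia and 15.8% in normoxia, and JUN 7.27% and 9.65%. Among the FOS genes only, FOSL1 held 43.6% of the FPKM in hypoxia and 53.2% in normoxia, against 36.9% and 31.3% for FOS. Among the JUN genes only, JUNB held 55.6% in hypoxia and 47.4% in normoxia, JUND 34.4% and 38.8%. These shares describe transcripts, and protein levels and dimers were not measured.

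**Figure D4:**
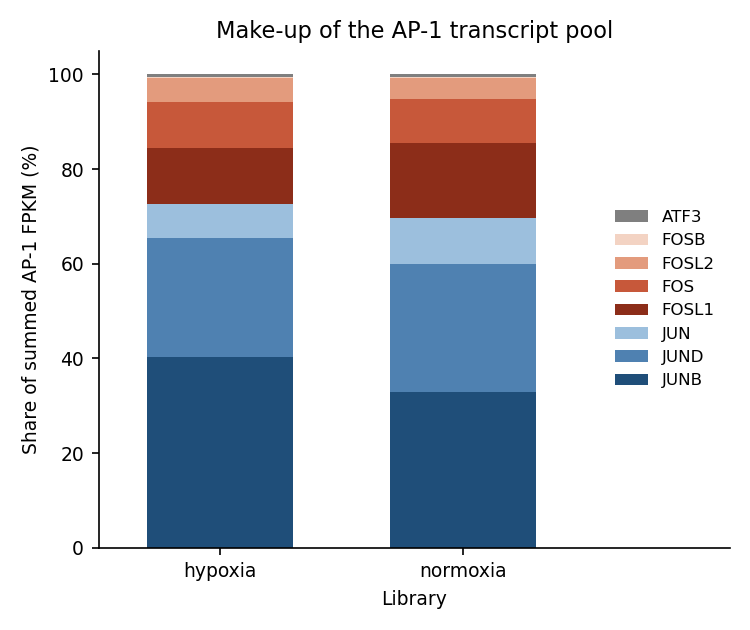
Share of the summed AP-1 FPKM (%) held by each gene in the hypoxia and normoxia libraries, with JUN family genes in blue, FOS family genes in red and ATF3 in grey. JUNB takes 40.4% in hypoxia and 33.0% in normoxia, and FOSL1 and JUN take smaller shares in hypoxia.

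Ratios between 2 AP-1 genes within a library do not depend on the scaling between libraries. JUNB had 5.55 times the FPKM of JUN in hypoxia and 3.42 times in normoxia, a change of 1.62-fold (exact conditional 95% counting interval 1.52 to 1.73). JUNB to FOSL1 was 3.46 in hypoxia and 2.08 in normoxia, a change of 1.66-fold (1.55 to 1.78). FOS to FOSL1 was 0.846 and 0.588 (1.44-fold, 1.32 to 1.57), and FOS to JUN was 1.36 and 0.964 (1.41-fold, 1.29 to 1.53). JUN to FOSL1, in contrast, was 0.624 in hypoxia and 0.610 in normoxia, a change of 1.02-fold (0.944 to 1.11), with an interval that holds 1. These pairs were picked from all 28 after their values were seen. A changed ratio shows unequal change of the pair and not which gene moved.

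Transcripts of the kinases and factors that act on AP-1 genes mostly showed small differences, and kinase activity was not measured. Of 21 filtered MAP kinase pathway genes, the interval of 2 lay above 0 and that of 6 below, against 14.5% and 14.4% of all filtered genes. The median log2 ratio was -0.02, and none passed 1.5-fold, against 1.19% of all genes higher and 1.13% lower. MAPK3, a growth factor kinase, had 35.3 FPKM in hypoxia and 38.9 in normoxia (log2 ratio -0.13, -0.25 to -0.02). MAPK8 (JNK1), the kinase known for phosphorylating JUN, had 5.45 and 5.67 FPKM (-0.05, -0.21 to 0.11). By interval bound MAP2K2, a kinase of ERK, was farthest below 0 at -0.16 (-0.21 to -0.11), and MAP3K1 farthest above at 0.39 (0.05 to 0.73). MAPK11 had the lowest ratio of the 21, -0.44 (-0.79 to -0.10), and was named after its value was seen. It had 128 counts in hypoxia and 163 in normoxia.

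SRF, which drives FOS together with ELK1, had 16.4 FPKM in hypoxia and 17.5 in normoxia (log2 ratio -0.08, -0.20 to 0.03). ELK1 had 25.6 and 24.3 FPKM (0.08, -0.03 to 0.19). Over the 11 genes of SRF, its cofactors and related coactivators the median was 0.00, with intervals above 0 for 3 (EP300 at 0.20, 0.11 to 0.29, was farthest) and below for 0, against 14.5% and 14.4% of all genes. MEF2D, at -0.09 (-0.20 to 0.01), was the nearest to lying below. The 11 genes of AU-rich mRNA decay and AP-1 protein turnover also had a median of 0.00, with ZFP36L1, which promotes decay of AU-rich transcripts, lowest at -0.19 (-0.26 to -0.13). KHSRP, which binds the same elements, was at 0.02 (-0.02 to 0.06).

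Among 18 filtered partner bZIP genes, 4 intervals lay above 0 and 4 below, against 14.5% and 14.4% of all genes. None passed 1.5-fold (1.19% and 1.13% of all). Their median log2 ratio was -0.02. MAFK, a small MAF protein that pairs with NFE2L2, had 1029 counts in hypoxia and 1286 in normoxia (log2 ratio -0.42, -0.54 to -0.30). NFIL3, a bZIP repressor of the circadian output, had 577 and 434 counts and a ratio on the log2 scale of 0.32 (0.13 to 0.50).

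Of 21 other immediate early genes that passed the filter, 16 log2 ratios lay below 0 and 5 above, with a median of -0.23. Their intervals lay below 0 for 11 and above 0 for 1, IER3 (0.10, 0.03 to 0.17), a regulator of survival under stress, against 14.4% of all genes below and 14.5% above. CCN1, CCN2 and EGR2 were lower by 1.5-fold or more, 3 of 21, against 1.13% of all genes. CCN1, a matricellular protein, had 4277 counts in hypoxia and 6387 in normoxia (-0.67, -0.73 to -0.62), and the zinc finger factor EGR2 had 26 and 52 (-1.10, -1.83 to -0.39). The AP-1 genes thus spread to both sides of 0 (3 intervals above and 3 below), whereas the intervals of the other immediate early genes lay mostly below it. The difference between the lists was not tested.

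Known AP-1 target genes had ratios in both directions. Of 32 that passed the filter, 8 intervals lay above 0 and 10 below, against 14.5% and 14.4% of all genes, with a median of -0.06. At 1.5-fold MMP3 and VEGFA were higher and MMP9 and CCN1 lower, so 2 and 2 of 32, against 1.19% and 1.13% of all genes. MMP3, a stromelysin that digests matrix, had 89 counts in hypoxia and 23 in normoxia (log2 ratio 1.86, 1.18 to 2.59). The gelatinase MMP9 had 17 and 37 counts (-1.22, -2.14 to -0.35). VEGFA, an angiogenic factor that hypoxia-inducible factors also drive, had 3808 and 2268 counts (0.65, 0.58 to 0.73).

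**Figure D5:**
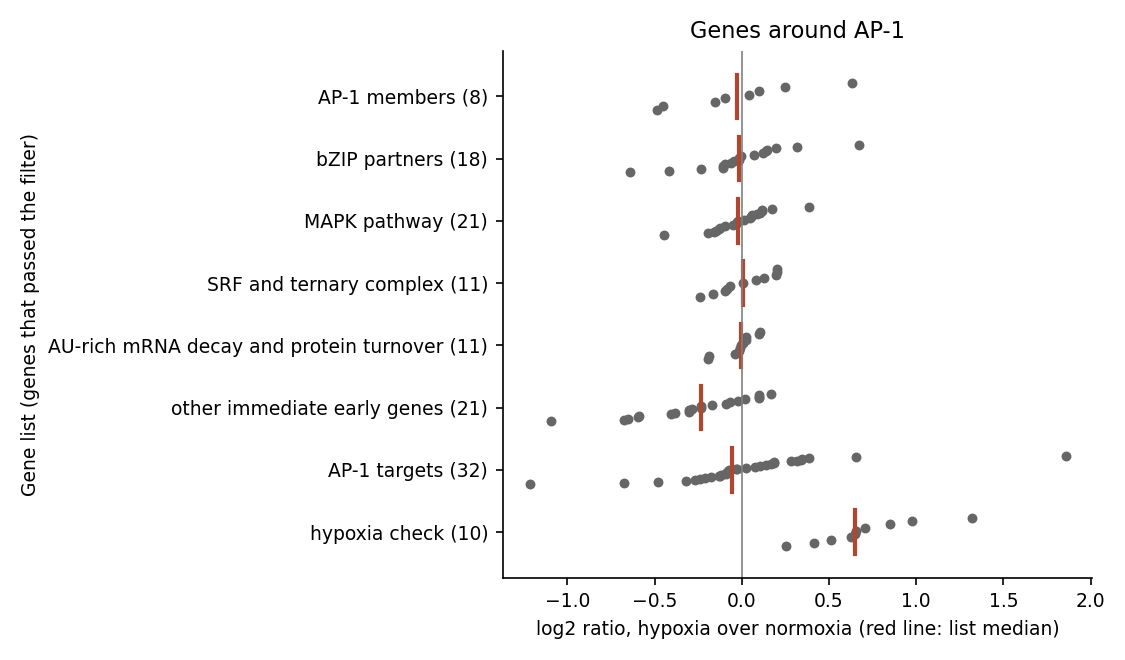
Log2 ratios of hypoxia over normoxia for the filtered genes of each list (points) with the list median (red line). The AP-1 genes spread around a median of -0.03, the other immediate early genes have a median of -0.23, and the hypoxia check genes all lie above 0.

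The libraries held 18943320 counts in hypoxia and 17643836 in normoxia. All 10 hypoxia check genes had a log2 ratio above 0, with NDRG1 at 1.32 (1.24 to 1.39), CA9 at 0.51 (0.37 to 0.65), VEGFA at 0.65 and a median of 0.65. The epithelial markers summed to 4909 FPKM in hypoxia and 5369 in normoxia, and the lung factor NKX2-1 had 34.8 and 32.4, whereas the surfactant genes were nearly silent (SFTPC had 2 and 4 counts, SFTPA1 2 and 2). Endothelial markers summed to 1.08 FPKM in hypoxia and 1.25 in normoxia, and fibroblast markers to 21.0 and 20.2. Leukocyte markers summed to 140 and 144 FPKM, of which CD68, a lysosomal gene also expressed outside macrophages, made 128 and 128, and PTPRC had 2 and 0 counts. In bulk RNA, fewer cells with a transcript and less of it per cell cannot be told apart.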

How the data were processed

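The mRNA tables of 15562 genes were used, the raw read counts deposited by the authors and the FPKM deposited by the authors. Per the submitters' processing notes the build was GRCh38 and the tools were HISAT2, HTSeq, Cufflinks, Bowtie and Trimmomatic, with no version or role named. Per the labels' protocols a stranded mRNA kit was used. The deposited FPKM equalled counts over the table total and a gene length, so they carry no further scaling. The miRNA files were not used.

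Counts were scaled with TMM in edgeR 4.0.16 (R 4.3.3) over genes at a CPM of 1 or more in 1 library. Ratios of hypoxia over normoxia carry exact conditional (Clopper-Pearson) 95% intervals, and counts exact Poisson intervals, both for counting error only, from scipy 1.17.1. No molecular identifiers are named in the labels, so duplicate reads could not be told apart. The intervals treat each read as independent and are too narrow where reads are duplicates. No p-value was computed. A gene passed the threshold at 1.5-fold with an interval excluding 1. Genes of like count had a mean scaled count within 2-fold. The ratio procedure was tested on simulated Poisson counts, which share the error model of the intervals. That simulation held no spread between cultures and no duplicate reads, so it cannot speak to either. Depth was 18943320 counts in hypoxia and 17643836 in normoxia.

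The members and gene lists were chosen with earlier results of these data known. All 8 AP-1 genes were named. Of every other list the genes past 1.5-fold (up to 4 a direction) and the extreme member each way by interval bound were to be named, with a few fixed kinases, factors and check genes, of which 1 is not reported here. Members of the marker lists were given as sums, and the hypoxia check genes by median, in place of this rule. The like-count comparison, the pair ratios, the promoter search and the 31 bZIP genes were added after the data were seen. Coordinates and promoters of the 8 genes come from RefSeq tables (GRCh38.p14), joined by Entrez identifier, and the patch level behind the counts was not stated in the sources used here. The alternatives were scaling by the size factors of DESeq2 1.42.0, by the upper quartile or by total counts, a CPM filter of 5 or none, FPKM plus a pseudocount of 1 or 0.1, folds of 1.2 and 2, removal of the trend with gene length (lowess, statsmodels 0.14.6) and shares of counts in place of FPKM.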

Additional observations from a re-analysis of the deposited data

How the results depend on the processing

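No paired analysis was possible because each condition has 1 library and no test was made. DESeq2 size factors, total counts and upper quartile scaling kept every AP-1 ratio, list median and count within its counting interval or within 1.5-fold, and the 8 AP-1 ratios and their median stayed within their intervals under every alternative. List medians were held against the medians of their members' interval bounds. The number of AP-1 genes past the threshold, 1, was 0 with FPKM and a pseudocount of 1 or 0.1, 3 at 1.2-fold (FOSB, FOSL1 and JUN) and 0 at 2-fold. FOSB, the gene past 1.5-fold, has few counts and a ratio of 1.55. With FPKM and a pseudocount of 1, or a CPM of 5, the numbers of fibroblast and leukocyte markers past it were 0 and 0 (1 and 1 before), and at a CPM of 5 that of AP-1 targets was 2 (4 before). With the length trend removed 1 bZIP partner passed, and the epithelial marker median (main value -0.09) was -0.039, and it was -0.013 with no filter. The cause was not tested.

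Shares of counts, which weight long genes more, were in hypoxia and normoxia 31.8% and 26.0% for JUNB, 20.8% and 22.5% for JUND, 10.2% and 13.6% for JUN, 8.54% and 11.6% for FOSL1, 8.93% and 8.44% for FOS, 18.6% and 16.9% for FOSL2, 0.460% and 0.288% for FOSB and 0.711% and 0.739% for ATF3. Depth limits FOSB and ATF3 most, since their counts leave wide intervals.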
